A study of Homo sapiens with 9 samples.

Results

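The genes described here are 10 mesenchymal effector genes, whose products build or remodel the extracellular matrix or the cytoskeleton of mesenchymal cells. They are VIM, FN1, SPARC, TAGLN, ACTA2, TNC, LOX, LOXL2, THBS1 and CALD1, taken from the count table by gene symbol, and all 10 were found among its 42717 genes. They were read in 9 RNA-seq libraries, 3 of each of the sublines S2-007, S2-020 and S2-028 of SUIT-2, an established human pancreatic ductal adenocarcinoma line. The cells were grown in DMEM with fetal bovine serum, the RNA was selected for poly(A), and the labels name no treatment or added gene for any line. Maspin, a serine protease inhibitor, lies in the nucleus and the cytoplasm of S2-007 and mainly in the cytoplasm of S2-028, and the study compared these 2 lines to relate its location to gene expression. Maspin protein is weak in S2-020, so comparisons with this line also differ in the amount of maspin. Each state of maspin is represented by a single line here. The location of maspin, its amount and any other difference between the lines therefore cannot be told apart.

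Epithelial cancer cells can take on mesenchymal traits in the epithelial-mesenchymal transition (EMT), in which cell-cell adhesion is lost, vimentin filaments appear beside the keratins, and matrix proteins are secreted. Fibronectin, tenascin C, thrombospondin 1 and SPARC are secreted glycoproteins of the matrix or its surroundings, lysyl oxidases cross-link collagen and elastin, and alpha smooth muscle actin, transgelin and caldesmon are parts of the actin apparatus. In pancreatic tumours much of this matrix comes from fibroblasts, which were not added to these cultures.

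The total count per library was between 71040887 and 75136834 in S2-007, between 73775302 and 86253923 in S2-020 and between 60328748 and 61800271 in S2-028. Levels are given as CPM, read counts scaled to library size, normalized by the TMM method over the 9 libraries. Differences are log2 fold changes with their standard error (SE), from edgeR's quasi-likelihood test on the 6 libraries of the lines compared, with p-values adjusted by Benjamini-Hochberg over all genes tested. A gene was called where the adjusted p was under 0.05 and the fold change was at least 1.5 in either direction. The labels do not say whether the libraries of a line came from separate cultures, so the p-values measure only the spread between these libraries. All 10 members passed the filter on low counts in each comparison. In S2-028 against S2-007, 4 members were called higher and 4 lower, where 10.2% and 8.19% of the 26371 genes tested were called higher and lower. In S2-020 against S2-007, 6 members were called higher and 1 lower, against 9.57% and 12.1% of 26657 genes. In S2-028 against S2-020, no member was called higher and 7 were called lower, against 12.1% and 10.1% of 26031 genes. The libraries of both lines did not overlap for 9, 9 and 8 of the 10 members in these comparisons, in the order given, against 43.7%, 48.8% and 48.6% of all genes tested. The 3 comparisons share lines and are therefore not independent of each other. The members were thus called more often than all genes except in 2 directions, lower in S2-020 than in S2-007 and higher in S2-028 than in S2-020, and they did not move as 1 group. They were chosen with earlier results of these data known, so no conclusion is drawn from their excess over all genes. The same holds for the gene lists below, whose counts are read against the same shares.

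**Figure D1:**
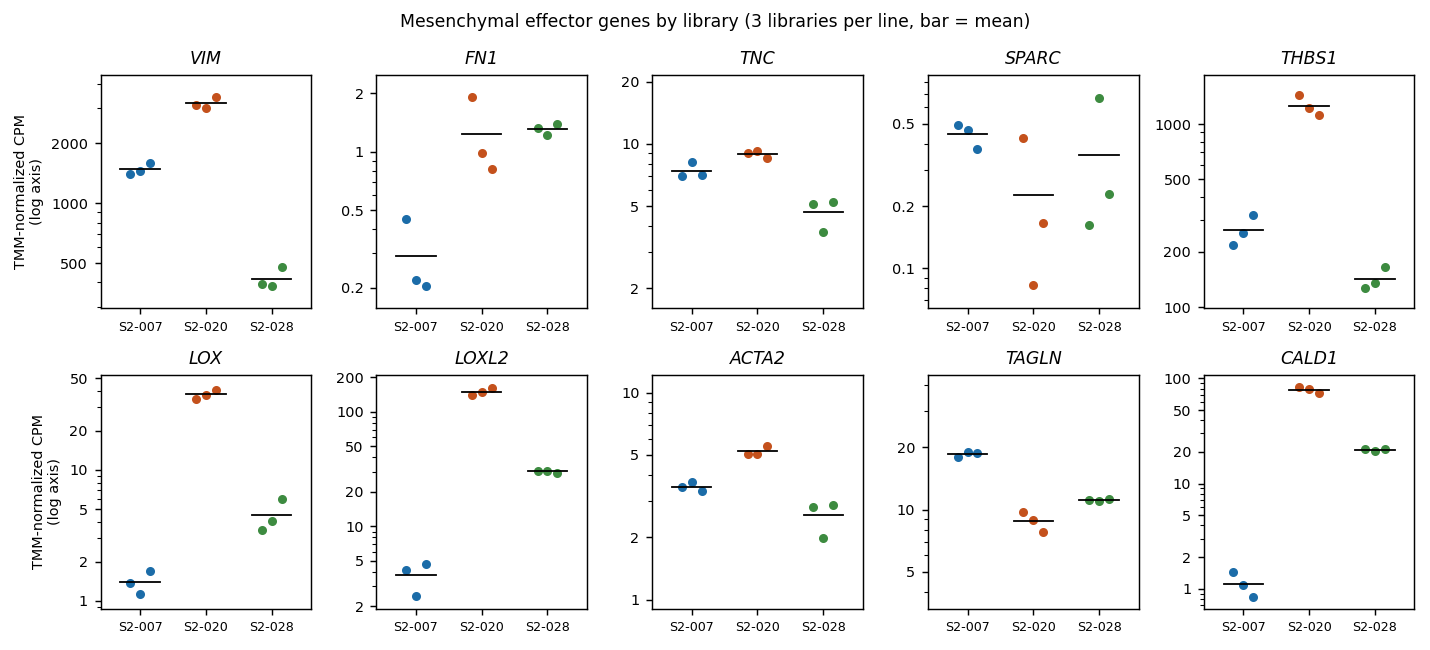
TMM-normalized CPM (log axis, a separate range for each gene) of the 10 members in the 3 libraries of S2-007, S2-020 and S2-028, with each point a library and each bar the mean of a line. S2-020 was the highest line for VIM, TNC, THBS1, LOX, LOXL2, ACTA2 and CALD1, whereas TAGLN was highest in S2-007 and the points of SPARC overlapped between lines.

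VIM, which encodes the intermediate filament protein vimentin, was the most abundant member by far and differed between all lines. In S2-007 it stood at 1398, 1461 and 1595 CPM. In S2-020 it stood at 3127, 3025 and 3415 CPM, and in S2-028 at 394.7, 384.8 and 475.6 CPM. S2-020 was thus the high line, S2-028 the low line, and no library of a line fell within the range of another. The mean of S2-020 was 2.15-fold that of S2-007 (log2 fold change 1.10, SE 0.05, edgeR adjusted p = 7.737e-13). S2-028 was lower than S2-007 by 3.48-fold (log2 fold change -1.80, SE 0.07, edgeR adjusted p = 2.575e-14) and lower than S2-020 by 7.66-fold (log2 fold change -2.94, SE 0.07, edgeR adjusted p = 4.871e-17). VIM lies on chromosome 10 (GRCh38.p14, 17228241 to 17237593, plus strand), and 45.6% of its exon bases are covered on the opposite strand by VIM-AS1 and another antisense gene. VIM-AS1 was counted at 189, 439 and 55.8 CPM on average for S2-007, S2-020 and S2-028, and its log2 fold changes (1.21, -1.74 and -2.98 for the comparisons in the same order) lay close to those of VIM. The libraries were strand-specific, but the counting of strand is not given in the sources used here, and how far reads of one gene entered the count of the other was not tested. Even at its lowest, vimentin RNA ranked among the abundant transcripts, since VIM exceeded 98.8% of 18968 protein-coding genes in S2-028 by CPM per kilobase of transcript.

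Of the other intermediate filament genes outside the keratins, NES (nestin) and SYNM (synemin) were also highest in S2-020. NES stood at 14.7, 63.8 and 21.7 CPM and SYNM at 11.7, 42.6 and 9.45 CPM on average for S2-007, S2-020 and S2-028. Both were called higher in S2-020 than in S2-007, by log2 fold changes of 2.12 (SE 0.09) and 1.86 (SE 0.09). NES was called higher in S2-028 than in S2-007 by 0.59 (SE 0.10) on the log2 scale, opposite in direction to VIM, whereas SYNM was not called there (-0.28, SE 0.13). Over the 13 genes of this class, VIM included, 3 were called higher and none lower of the 9 tested in S2-020 against S2-007, 1 was called in each direction of the 10 tested in S2-028 against S2-007, and 2 were called higher and 3 lower of 10 in S2-028 against S2-020. The shares of all genes called higher and lower were 9.57% and 12.1%, 10.2% and 8.19%, and 12.1% and 10.1%, in the same order.

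The matrix glycoproteins among the members fell into 3 patterns, and FN1, a common sign of EMT, was nearly silent. THBS1, which encodes thrombospondin 1, a secreted protein that binds CD47 and can activate latent TGF-beta, stood at 219.6, 254.4 and 319.2 CPM in S2-007. It reached 1433, 1227 and 1125 CPM in S2-020 and 127.8, 134.7 and 164.9 CPM in S2-028. The lines did not overlap, and their order was that of VIM. S2-020 was higher than S2-007 by 4.77-fold (log2 fold change 2.25, SE 0.10, edgeR adjusted p = 3.84e-13), and S2-028 was lower than S2-007 by 1.82-fold (log2 fold change -0.87, SE 0.10, edgeR adjusted p = 7.39e-07). Between S2-028 and S2-020 the difference was 8.90-fold, the largest of the members in that comparison (log2 fold change -3.15, SE 0.09, edgeR adjusted p = 7.478e-16).

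TNC, which encodes tenascin C, a matrix protein of wounds and tumour stroma, differed in the same order by smaller amounts. Its levels were 6.98, 8.13 and 7.08 CPM in S2-007, 9.01, 9.22 and 8.51 CPM in S2-020, and 5.12, 3.75 and 5.21 CPM in S2-028. The 3 lines did not overlap, but S2-007 and S2-020 were close neighbours whose difference was not called (log2 fold change 0.27, SE 0.12, 95% interval 0.02 to 0.52, edgeR adjusted p = 0.0819). S2-028 was lower than S2-007 by 1.55-fold (log2 fold change -0.63, SE 0.16, edgeR adjusted p = 0.0033), a call that was lost without S2-028 replicate 2 (-0.50) or without S2-007 replicate 2 (-0.56). Against S2-020 it was lower by 1.91-fold (log2 fold change -0.94, SE 0.15, edgeR adjusted p = 2.553e-05).

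FN1, which encodes fibronectin, received 33, 16 and 15 counts in S2-007, 139, 83 and 59 in S2-020, and 82, 79 and 85 in S2-028. As CPM these were 0.451, 0.219 and 0.203 in S2-007, 1.92, 0.986 and 0.813 in S2-020, and 1.33, 1.22 and 1.39 in S2-028. S2-007 was the low line and did not overlap with the others, whereas the libraries of S2-020 lay on both sides of those of S2-028. FN1 was called higher in S2-028 than in S2-007 (4.57-fold, log2 fold change 2.19, SE 0.39, edgeR adjusted p = 0.000105) and in S2-020 than in S2-007 (4.24-fold, log2 fold change 2.09, SE 0.42, edgeR adjusted p = 0.000393). S2-028 and S2-020 were not distinguished (log2 fold change 0.08, 95% interval -0.58 to 0.73, edgeR adjusted p = 0.886). These folds rest on few reads, and per kilobase FN1 exceeded only 10.4%, 26.3% and 25.3% of 18968 protein-coding genes for S2-007, S2-020 and S2-028.

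SPARC, which encodes a collagen-binding protein made in quantity by fibroblasts, was as low and was called in no comparison. It received 36, 34 and 28 counts in S2-007, 31, 7 and 12 in S2-020, and 10, 43 and 14 in S2-028, which is 0.380 to 0.492, 0.0832 to 0.429 and 0.162 to 0.666 CPM. The ranges overlapped, and single libraries of S2-020 and S2-028 differed from their partners by more than the lines differed. The log2 fold change was -0.31 in S2-028 against S2-007 (95% interval -1.48 to 0.86, edgeR adjusted p = 0.754), -0.98 in S2-020 against S2-007 (-2.23 to 0.27, edgeR adjusted p = 0.220), and 0.65 in S2-028 against S2-020 (-0.86 to 2.15, edgeR adjusted p = 0.539). Differences within these intervals are not excluded, and without S2-020 replicate 1 SPARC was called lower in S2-020 than in S2-007 (-1.84, edgeR adjusted p = 0.0397).

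Among the 34 matrix glycoproteins examined, the 4 members included, 11 were called higher and 5 lower of 31 tested in S2-028 against S2-007, with a median log2 fold change of 0.58 where that of all genes was 0.00196. In S2-020 against S2-007, 10 were called higher and 4 lower of 29 tested (median 0.27, all genes -0.05), and in S2-028 against S2-020, 6 higher and 7 lower of 30 tested (median 0.13, all genes 0.02). All genes tested were called higher and lower at 10.2% and 8.19%, 9.57% and 12.1%, and 12.1% and 10.1%, in that order. THBS2, the closest relative of THBS1, did not share its pattern. It stood at 11.8 CPM in S2-007, 200.5 in S2-020 and 241.6 in S2-028, and was called higher than in S2-007 in both lines (log2 fold changes 4.09, SE 0.09, and 4.39, SE 0.08), while S2-028 and S2-020 differed by less than the fold threshold (0.26, SE 0.07). Per kilobase of transcript, THBS2 (42.4) lay above THBS1 (18.3) in S2-028, whereas THBS1 lay above THBS2 in S2-007 (33.9 and 2.06) and S2-020 (162 and 35.2). CCN2, which encodes connective tissue growth factor, was highest in S2-020 (5.98, 77.8 and 15.6 CPM for S2-007, S2-020 and S2-028). SPP1 (osteopontin) and TGFBI were highest in S2-028, at 31.9 CPM against 0.854 in S2-007 for SPP1, and at 342 against 157.7 for TGFBI, whose excess over S2-020 lay under the fold threshold (0.58, SE 0.06).

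The lysyl oxidase genes LOX and LOXL2 differed among the lines by up to 39.7-fold, and in another order than VIM and THBS1. LOX, whose product cross-links collagen and elastin, stood at 1.38, 1.13 and 1.71 CPM in S2-007, 35, 37.1 and 40.9 CPM in S2-020, and 3.48, 4.09 and 5.97 CPM in S2-028. S2-020 was far above the other lines, S2-028 lay above S2-007, and no ranges overlapped. LOX was 26.7-fold higher in S2-020 than in S2-007 (log2 fold change 4.74, SE 0.13, edgeR adjusted p = 1.139e-16) and 3.26-fold higher in S2-028 than in S2-007 (log2 fold change 1.71, SE 0.24, edgeR adjusted p = 5.091e-06). S2-028 was lower than S2-020 by 8.38-fold (log2 fold change -3.07, SE 0.14, edgeR adjusted p = 1.325e-12).

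LOXL2, a family member that acts on collagen IV and has been tied to EMT, followed the same order. It stood at 4.18, 2.47 and 4.69 CPM in S2-007, 139.9, 147.9 and 162.3 CPM in S2-020, and 30.7, 30.4 and 29.3 CPM in S2-028. The 3 lines were again apart in every library. LOXL2 was 39.7-fold higher in S2-020 than in S2-007 (log2 fold change 5.31, SE 0.14, edgeR adjusted p = 6.216e-17), 8.11-fold higher in S2-028 than in S2-007 (log2 fold change 3.02, SE 0.16, edgeR adjusted p = 1.513e-12), and 5.00-fold lower in S2-028 than in S2-020 (log2 fold change -2.32, SE 0.07, edgeR adjusted p = 6.99e-16).

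LOXL4, in contrast, was highest in S2-007, the line where LOX and LOXL2 were lowest. LOXL4 stood at 909, 67.6 and 11.3 CPM on average for S2-007, S2-020 and S2-028. It was called lower in S2-020 than in S2-007 (log2 fold change -3.75, SE 0.11), lower in S2-028 than in S2-007 (-6.30, SE 0.12) and lower in S2-028 than in S2-020 (-2.59, SE 0.15). Per kilobase of transcript, LOXL4 led the family in S2-007 (253, with LOXL2 at 1.02 and LOX at 0.277), whereas LOXL2 led in S2-020 (40.3, with LOXL4 at 18.8 and LOX at 7.42) and in S2-028 (8.10, with LOXL4 at 3.14 and LOX at 0.889). In S2-028 the libraries ranged from 7.87 to 8.26 for LOXL2 and from 2.44 to 3.93 for LOXL4, with no overlap. LOXL3 (3.47, 2.80 and 5.43 CPM) and LOXL1 (0.346, 0.0976 and 1.07 CPM) were low throughout and were called higher in S2-028 than in either of the other lines. The summed level of the 5 genes was 890 to 961 CPM in S2-007, 256 to 260 in S2-020 and 50.4 to 54.7 in S2-028, so the line with the most LOX and LOXL2 was not the line with the most lysyl oxidase RNA.

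**Figure D2:**
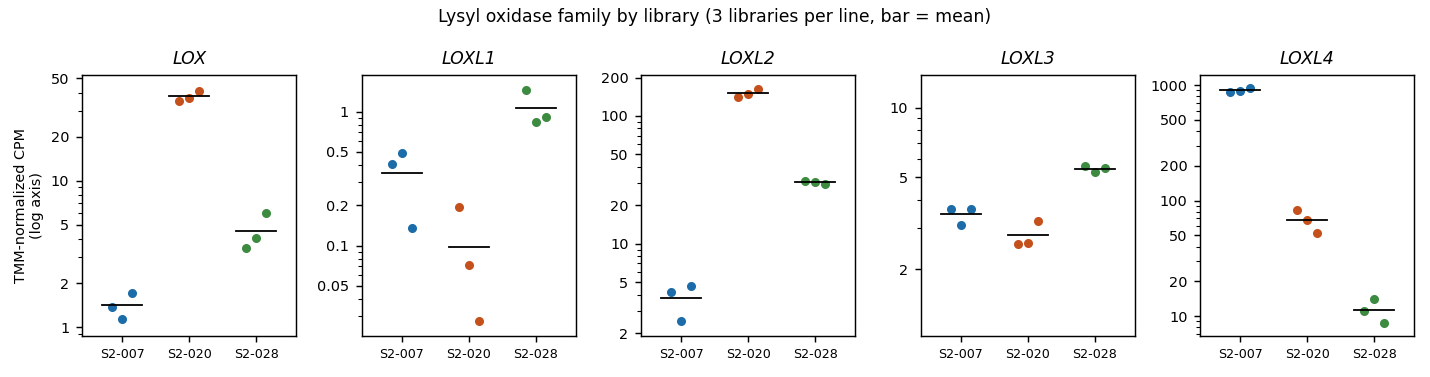
TMM-normalized CPM (log axis, a separate range for each gene) of the 5 lysyl oxidase genes in the 3 libraries of each line, with bars at the means. LOX and LOXL2 were highest in S2-020 and lowest in S2-007, whereas LOXL4 fell from 909 CPM in S2-007 to 67.6 in S2-020 and 11.3 in S2-028.

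The actin-associated members gave 3 different orders. CALD1, which encodes caldesmon, an actin-binding regulator of contraction, had the widest range of the 10 genes. It stood at 1.44, 1.09 and 0.840 CPM in S2-007, 83.0, 78.5 and 73.1 CPM in S2-020, and 21.4, 20.5 and 21.3 CPM in S2-028. The lines were apart in every library, with S2-007 at the bottom as for LOX and LOXL2. CALD1 was 69.6-fold higher in S2-020 than in S2-007 (log2 fold change 6.12, SE 0.12, edgeR adjusted p = 1.05e-18) and 19.1-fold higher in S2-028 than in S2-007 (log2 fold change 4.25, SE 0.16, edgeR adjusted p = 7.263e-15). S2-028 was lower than S2-020 by 3.74-fold (log2 fold change -1.90, SE 0.07, edgeR adjusted p = 2.721e-14). No annotated gene overlaps the exons of CALD1, and none of its transcript words of 31 bases occurs in another gene.

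TAGLN, which encodes transgelin (SM22), was the only member called lower in S2-020 than in S2-007. It stood at 18, 19.04 and 18.7 CPM in S2-007, 9.73, 8.95 and 7.80 CPM in S2-020, and 11.12, 11.03 and 11.2 CPM in S2-028. S2-007 was the high line, and the ranges of S2-020 and S2-028 did not overlap. It was lower than in S2-007 by 2.10-fold in S2-020 (log2 fold change -1.07, SE 0.10, edgeR adjusted p = 2.959e-08) and by 1.64-fold in S2-028 (log2 fold change -0.72, SE 0.10, edgeR adjusted p = 4.345e-06). S2-028 was above S2-020 by less than the fold threshold (log2 fold change 0.33, 95% interval 0.08 to 0.57, edgeR adjusted p = 0.0319). Of the 10 members, TAGLN has the largest share of exon bases overlapped by other genes, so its count is the least certain in assignment. On chromosome 11 (GRCh38.p14, 117199294 to 117207465, plus strand), 59.0% of its exon bases are covered on the opposite strand by PCSK7 and 66.0% on the same strand by another annotated gene. PCSK7, a proprotein convertase gene, stood at 183, 70.8 and 97.2 CPM for S2-007, S2-020 and S2-028, and its log2 fold changes against S2-007 were -1.37 in S2-020 and -0.89 in S2-028, in the same directions as those of TAGLN. The part of PCSK7 in the TAGLN count was not tested. TAGLN2, which encodes a paralogue found in many cell types, was at 306, 311.5 and 343 CPM and was called in no comparison.

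ACTA2, which encodes alpha smooth muscle actin, the usual marker of myofibroblasts, was low in all lines. It stood at 3.49, 3.69 and 3.33 CPM in S2-007, 5.04, 5.05 and 5.56 CPM in S2-020, and 2.80, 1.98 and 2.87 CPM in S2-028. The lines did not overlap, and the order was that of VIM, but only the difference between S2-028 and S2-020 was called (2.06-fold lower in S2-028, log2 fold change -1.04, SE 0.18, edgeR adjusted p = 9.396e-05). S2-028 against S2-007 gave -0.43 (95% interval -0.85 to -0.01, edgeR adjusted p = 0.115). S2-020 against S2-007 gave 0.57 (95% interval 0.25 to 0.89, edgeR adjusted p = 0.00459), which passed the p threshold and lay just under the fold threshold, and it lay just over it with the size factors of DESeq2 (0.61). ACTA2-AS1 covers 38.3% of the exon bases of ACTA2 on the opposite strand. It was counted at 0.227, 0.676 and 0.334 CPM on average for S2-007, S2-020 and S2-028. Its log2 fold change was 1.57 in S2-020 against S2-007, where it was called higher. It was 0.58 in S2-028 against S2-007 and -1.01 in S2-028 against S2-020, neither called. The part of ACTA2-AS1 reads in the count of ACTA2 was not tested. Of the 31-base words of ACTA2, 1.21% occur in other genes, and the part of reads from other actin genes in its count was not tested.

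**Figure D3:**
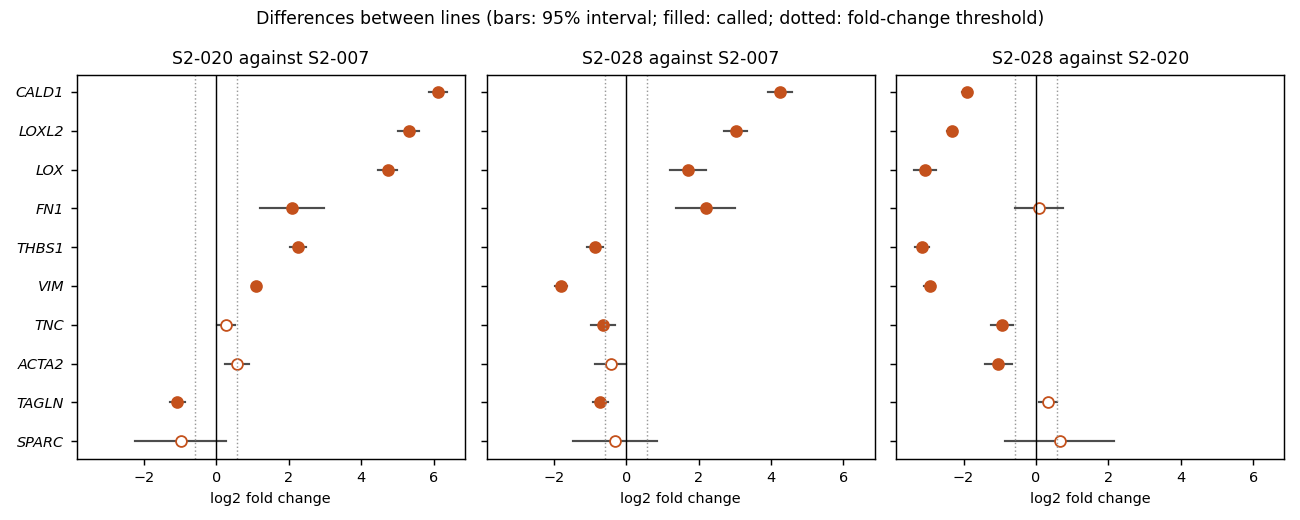
Log2 fold changes of the 10 members in each comparison, with 95% intervals as bars, called differences as filled points and the fold threshold of 1.5 as dotted lines. CALD1, LOXL2 and LOX lie to the right in both comparisons with S2-007, VIM and THBS1 change side between them, and every called member lies to the left in S2-028 against S2-020.

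Over the wider list of 28 actin cytoskeleton and contractile genes, the 3 members included, the genes called were fewer than those not called in each comparison, but their share was above that of all genes called. In S2-020 against S2-007, 7 were called higher and 1 lower of 24 tested, and the lower gene was TAGLN itself. MYLK, which encodes myosin light chain kinase (13.2, 133.5 and 21.4 CPM for S2-007, S2-020 and S2-028), and TPM1, which encodes a tropomyosin (100.1, 425 and 109 CPM), were called higher in S2-020, as CALD1 was, by log2 fold changes of 3.34 (SE 0.07) and 2.08 (SE 0.06). In S2-028 against S2-007, 4 were called higher and 6 lower of 26 tested, among them TPM2 (285.7 and 69.0 CPM in S2-007 and S2-028, log2 fold change -2.02, SE 0.06) and MYL9, a regulatory myosin light chain (10.7 and 0.716 CPM, log2 fold change -3.87, SE 0.19). In S2-028 against S2-020, 2 were called higher and 11 lower of 27 tested (median -0.49, all genes 0.02). Serum response factor (SRF), which together with its cofactors MRTFA and MRTFB drives many contractile genes, stood at 53.4, 77.9 and 43.7 CPM for S2-007, S2-020 and S2-028. It was called lower in S2-028 than in S2-020 (log2 fold change -0.84, SE 0.06, edgeR adjusted p = 2.224e-09), and its differences from S2-007 lay under the fold threshold in both lines (0.54 in S2-020 and -0.26 in S2-028). Of the 8 genes for SRF and its cofactors, 1 was called in S2-028 against S2-007 (FHL2, lower), 1 in S2-020 against S2-007 (ELK3, higher) and 3 in S2-028 against S2-020 (SRF and ELK3 lower, MRTFB higher). Among all genes tested, the shares called higher and lower were 10.2% and 8.19%, 9.57% and 12.1%, and 12.1% and 10.1%, in that order.

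The promoters of VIM, ACTA2 and THBS1 are printed because these genes shared the order S2-020, S2-007, S2-028 and because no annotated exon lies in their windows. Each window holds the 250 bases before the RefSeq start on GRCh38.p14, on the strand of the gene, and capitals mark GGAATG, the core letters bound by TEAD factors.
VIM, chr10:17227991-17228240, plus strand: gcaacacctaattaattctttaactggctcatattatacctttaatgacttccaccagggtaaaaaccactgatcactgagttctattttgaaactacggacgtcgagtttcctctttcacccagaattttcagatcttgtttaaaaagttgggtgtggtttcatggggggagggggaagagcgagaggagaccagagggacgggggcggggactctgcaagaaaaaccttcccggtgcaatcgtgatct
ACTA2, chr10:88952774-88953023, minus strand: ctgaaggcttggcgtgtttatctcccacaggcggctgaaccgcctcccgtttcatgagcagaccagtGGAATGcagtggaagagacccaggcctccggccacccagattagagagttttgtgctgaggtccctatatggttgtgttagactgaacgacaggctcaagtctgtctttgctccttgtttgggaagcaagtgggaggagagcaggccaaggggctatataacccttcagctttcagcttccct
THBS1, chr15:39580829-39581078, plus strand: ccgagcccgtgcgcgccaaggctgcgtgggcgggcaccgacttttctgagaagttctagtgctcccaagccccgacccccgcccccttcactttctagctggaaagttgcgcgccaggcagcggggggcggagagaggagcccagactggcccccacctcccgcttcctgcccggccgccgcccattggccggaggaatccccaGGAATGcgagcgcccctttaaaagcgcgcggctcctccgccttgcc
GGAATG stands on the plus sense at position -183 of ACTA2 and -46 of THBS1, counted from the start site, and on neither strand of the VIM window. It occurs in 11.9% of the 35116 promoter windows of the same length. TGANTCA, a site of AP-1, was in none of the 3 windows and occurs in 6.57% of all windows. The strict CArG box, the site of SRF, was searched with no mismatch allowed and occurs in 1.16% of all windows. It had no exact match in the 3 windows, but CArG elements that are off by a letter, which SRF can bind, were not searched, so nothing follows from this about SRF at ACTA2 or the other genes. GGGCGG, the GC box of Sp1, occurs in 42.6% of all windows. It was in the printed windows of VIM and THBS1 and not in that of ACTA2. All letters were sought on both strands, and none of these motifs overlaps a capital run. A match of letters is a description of the window and not a measured site, and windows of TAGLN and LOXL2 were not in the table used.

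**Figure D4:**
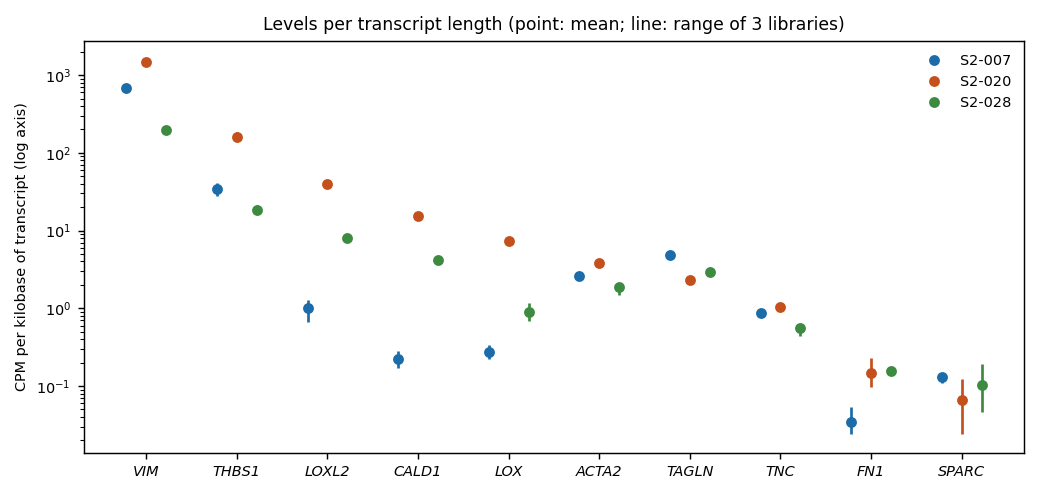
CPM per kilobase of MANE Select transcript (log axis) of the 10 members, with points at the mean of each line and lines over the range of its 3 libraries. VIM and THBS1 lie at the top in every line and FN1 and SPARC at the bottom, with LOXL2 and CALD1 next after THBS1 in S2-020 and S2-028.

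Levels of different genes were compared per kilobase of transcript. The 10 members summed to 733 CPM per kilobase in S2-007, 1710 in S2-020 and 231 in S2-028, and VIM alone was 94.0%, 86.4% and 83.9% of these sums. With THBS1 the shares were 98.6%, 95.9% and 91.9%. VIM and THBS1 held the first ranks in all lines. In S2-007 they were followed by TAGLN (4.91) and ACTA2 (2.6), whereas in S2-020 they were followed by LOXL2 (40.3) and CALD1 (15.6), and in S2-028 by the same genes (8.10 and 4.20). LOXL2 exceeded 40.5% of protein-coding genes in S2-007, 90.3% in S2-020 and 64.8% in S2-028, and CALD1 exceeded 28.3%, 76.6% and 54.2%. The summed level of a line thus mainly followed VIM, while the composition of the remainder differed between S2-007 and the other lines.

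Some regulators and partners of the members differed among the lines as well. ZEB1, a transcriptional repressor that drives EMT, followed the order of VIM at 38.5, 73.2 and 14.2 CPM for S2-007, S2-020 and S2-028, and all 3 differences were called (log2 fold changes 0.93 in S2-020 and -1.41 in S2-028 against S2-007, and -2.37 in S2-028 against S2-020). CDH2, which encodes N-cadherin, did the same at 9.66, 26.9 and 1.21 CPM, and so did S100A4, which encodes a calcium-binding protein, at 27.5, 105 and 15.8 CPM. SNAI2 (Slug) had another order, at 14.7, 0.627 and 0.538 CPM, and was called lower in S2-020 and S2-028 than in S2-007 (log2 fold changes -4.56, SE 0.18, and -4.75, SE 0.24). FOXC2 was likewise highest in S2-007, at 4.24 CPM against 0.00792 in S2-020 and 0.108 in S2-028. Of the 8 EMT transcription factors, 2 were called in each direction of 7 tested in S2-020 against S2-007, 1 higher and 3 lower of 7 in S2-028 against S2-007, and none higher and 2 lower of 6 in S2-028 against S2-020. ITGA5, the fibronectin receptor subunit alpha5, was highest in S2-020 (22.7, 79.5 and 32.7 CPM), where it was called higher than in S2-007 (log2 fold change 1.81, SE 0.07). ITGB6, a subunit of an epithelial integrin, was the reverse (66.7, 1.123 and 37.2 CPM). Of the 18 receptors of matrix proteins, 3 were called higher and 6 lower in S2-020 against S2-007, 3 in each direction in S2-028 against S2-007, and 4 higher and 2 lower in S2-028 against S2-020. All genes tested were called higher and lower at 9.57% and 12.1%, 10.2% and 8.19%, and 12.1% and 10.1%, in that order. The EMT transcription factors are read against the same shares. CD47, the receptor of THBS1, stood at 212 CPM in S2-007, 99.7 in S2-020 and 113.5 in S2-028.

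Epithelial markers were examined beside the members because EMT is defined by both. Of the 14 markers, 12 were called lower and none higher in S2-020 against S2-007 (median log2 fold change -2.88), 12 were called higher and none lower in S2-028 against S2-007 (1.26), and all 14 were called higher in S2-028 against S2-020 (4.23). All genes tested were called higher and lower at 9.57% and 12.1%, 10.2% and 8.19%, and 12.1% and 10.1%, in that order. Their medians were -0.05, 0.00196 and 0.02. CDH1, which encodes E-cadherin, stood at 55.0, 4.50 and 112 CPM for S2-007, S2-020 and S2-028. ESRP1, an epithelial splicing factor, stood at 35.8, 0.594 and 149.9 CPM, and EPCAM at 534, 120.5 and 420 CPM. The order of CDH1 and ESRP1 was thus opposite to that of VIM, THBS1, ZEB1 and CDH2, but it was not opposite to that of LOX, LOXL2, CALD1 and FN1, which were higher in S2-028 than in S2-007 although CDH1 was also higher. Of the 9 further mesenchymal markers tested, 7 were called higher and none lower in S2-020 against S2-007, 4 higher and 2 lower in S2-028 against S2-007, and 1 higher and 3 lower in S2-028 against S2-020. These counts are read against the same shares of all genes. AXL, a receptor tyrosine kinase (141, 382.5 and 514 CPM), and TGFB2, a ligand of the TGF-beta receptors (1.68, 6.21 and 11.4 CPM), were among those called higher in S2-028 than in S2-007. For the members themselves the median log2 fold change was 1.59 in S2-020 against S2-007, -0.37 in S2-028 against S2-007 and -1.47 in S2-028 against S2-020.

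**Figure D5:**
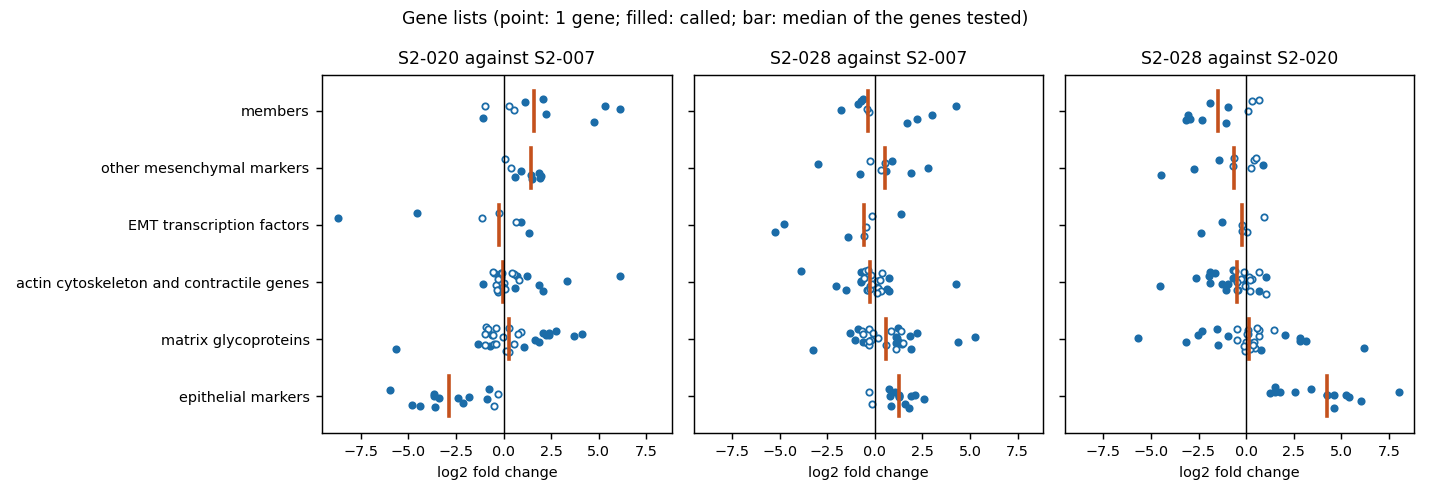
Log2 fold changes of the members and of 5 related gene lists in each comparison, with 1 point for each gene tested, filled where called, and an orange bar at the median of the list. The medians of the epithelial markers were -2.88, 1.26 and 4.23 in the panels from left to right, and those of the members 1.59, -0.37 and -1.47.

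In bulk RNA, fewer cells that express a gene and less RNA per cell cannot be told apart, so markers of other cell types were summed in each library. The 10 fibroblast markers summed to 4.77 to 7.35 CPM in S2-007, 4.53 to 4.80 in S2-020 and 5.45 to 7.51 in S2-028, of which COL1A1 gave 2.17, 1.31 and 3.61 on average, while DCN, LUM, PDGFRA and COL1A2 each averaged under 1 CPM in every line. The 7 smooth muscle and pericyte markers summed to 6.44 to 7.64 CPM in S2-007, 6.45 to 7.97 in S2-020 and 7.11 to 8.71 in S2-028. The 6 endothelial markers summed to 6.33 to 7.86 CPM in S2-007, 8.92 to 10.3 in S2-020 and 5.70 to 7.37 in S2-028, so that S2-020 stood above the other lines here as it did for VIM, THBS1, LOX, LOXL2 and CALD1. Most of this sum was PECAM1 (6.26, 8.42 and 5.98 CPM), CDH5 was at most 0.184 CPM on average in a line, and the part of such cells in the members' levels was not tested. The 6 leukocyte markers summed to 337 to 419 CPM in S2-007 and 12.8 to 16.2 in the other lines, of which LYZ gave 337 CPM and CD68 41.6 CPM on average in S2-007. CD68 stood at 7.76 CPM in S2-020 and 10.4 in S2-028 and was called lower in both than in S2-007 (log2 fold changes -2.42, SE 0.09, and -1.98, SE 0.09), as was LYZ (-7.03, SE 0.12, and -7.29, SE 0.11). PTPRC, which marks leukocytes in general, was at most 0.304 CPM on average in a line, and the part of such cells in the members' levels was not tested either. The summed fibroblast markers of S2-020 lay at the low end of the 9 libraries, and the part of fibroblasts in the members' levels was not tested. Epithelial keratin 8 (KRT8) stood at 4873, 2885 and 8421 CPM for S2-007, S2-020 and S2-028, so this marker was abundant in each line. It does not stand for the 14 epithelial markers. Of these, 12 were called lower in S2-020 than in S2-007, as were 12.1% of all genes tested, and 2 were not called. ESRP1 was at 0.594 CPM in S2-020.

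The neighbouring genes on the chromosome were examined beside each member. Over the 50 nearest tested genes of each member, the median log2 fold change lay between -0.41 (ACTA2, S2-020 against S2-007) and 0.38 (LOXL2, S2-020 against S2-007), where the median of all genes was -0.05. In the same comparison it was -0.37 beside FN1 (2.09), and the -0.41 beside ACTA2 (0.57) was opposite in sign and not far from it in size. Beside LOXL2 (5.31) the surrounding median was 0.38, beside LOX (4.74) it was 0.28, and beside CALD1 (6.12) it was -0.16, in S2-020 against S2-007.

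The genes most alike in level over the 9 libraries were sought for VIM, FN1 and TAGLN among genes whose mean log2 CPM was 3 or more. HK1 (hexokinase 1) and DENND5A were closest to VIM (Pearson r 0.999 for both), but over a narrower range, since HK1 stood at 163.9, 222 and 101.3 CPM for S2-007, S2-020 and S2-028. AGO3 and FMR1 were closest to FN1 (r 0.970 and 0.969), again over a narrow range (40.8, 45.5 and 46.7 CPM for AGO3). LHFPL2 and MMP7 were closest to TAGLN (r 0.998 and 0.995), and MMP7, which encodes matrilysin, stood at 638, 58.7 and 126 CPM. The 9 libraries form 3 groups of 3, so these values mainly describe the order and spacing of 3 lines, and no p-value is given.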

How the data were processed

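The data were RNA-seq counts of 9 libraries, 3 per line. The authors trimmed reads with Trimmomatic 0.39, aligned them with BWA 0.7.17 to GRCh38.p14 and deposited whole-number counts of reads per gene without normalization. The authors also deposited 18 columns of normalized signal, which were not used. Lines of the table that name no gene (2) were left out. BWA does not join reads across introns, and the counting tool is not given in the sources used here. Counts were analysed with edgeR 4.0.16 in R 4.3.3 (filterByExpr with minimum count 10 and minimum total 15, TMM, glmQLFit, glmQLFTest), without a covariate. Logarithms of CPM use a prior count of 2, and the SE is the log2 fold change divided by the square root of F. Lengths are those of MANE Select transcripts (GENCODE). Promoters and coordinates are from RefSeq tables of GRCh38.p14, in which 42535 of 42717 gene identifiers were found (99.6%). The procedure was tested on simulated counts. The chi-square per gene was 8.41 to 23.7 between libraries of a line and 231 to 351 between lines, so no library was a copy of another.

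The members and lists were chosen with earlier results of these data known. Named were all members, at most 3 called genes with the smallest adjusted p of each other list and comparison, CDH1, EPCAM, ZEB1, SNAI2, SRF, LOXL1, LOXL3, LOXL4, TAGLN2, ITGA5 and CDH2, and 2 genes each most alike to VIM, FN1 and TAGLN. KRT8, PTPRC, PECAM1, CDH5, DCN, LUM, COL1A2 and the overlapping genes were named after their values were seen. Alternatives were a likelihood ratio test, DESeq2 1.42.0, its size factors, other filters, 1 fit of all libraries, the replicate number as a block, and each library left out.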

Additional observations from a re-analysis of the deposited data

How the results depend on the processing

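The number of members called in S2-028 against S2-007, S2-020 against S2-007 and S2-028 against S2-020 was 8, 7 and 7, and with single libraries left out it ranged over 7 to 8, 7 to 9 and 7. The number of genes called over the whole table stayed within 1.5 times its value under every alternative run (4502 to 5141, 5269 to 6068 and 5294 to 6074). Of the alternatives for single members, 375 kept direction and call. The direction turned in 4, none of them called: SPARC in S2-028 against S2-007 without S2-028 replicate 1 (0.035, in a range of -1.16 to 0.035 over single libraries left out), SPARC in S2-028 against S2-020 without S2-028 replicate 2 (-0.19, range -0.19 to 1.49), and FN1 in S2-028 against S2-020 without S2-020 replicate 2 (-0.07) or 3 (-0.15, range -0.15 to 0.53). A call was lost in 2, both of TNC in S2-028 against S2-007, and gained in 7. The gains were ACTA2 in S2-020 against S2-007 with DESeq2, its size factors or all 9 libraries in 1 fit (0.61 each) and without S2-020 replicate 1 (0.60), S2-020 replicate 2 (0.60) or S2-007 replicate 2 (0.63), and SPARC in the same comparison without S2-020 replicate 1 (-1.84). ACTA2 lay beside the fold threshold under each of its alternatives (0.56 to 0.61 with all libraries). No alternative shifted the log2 fold changes of the genes shared with the main fit by more than 0.0313 in the median.

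With the replicate number as a block, 4865, 5650 and 5716 genes were called in place of 4858, 5769 and 5788, and the members called were 8, 7 and 7 as before. Same-numbered libraries deviated together with correlations of -0.03 to 0.23, and not every library correlated best with its own number, so the numbers were not taken to pair the libraries. FN1 and SPARC rest on few reads (7 to 139 per library), and the libraries of a line differed widely in them.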
